A study of Mus musculus with 8 samples.

Results

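Lyz1 and Lyz2, 2 mouse lysozyme genes of chromosome 10, were followed through 8 RNA-seq libraries of bone marrow cells grown in culture. The members were picked by name, as the 2 rows Lyz1 and Lyz2 among the 24062 genes of the count table, and both were among the 13197 genes with enough counts to be tested. Lysozyme is a secreted enzyme that cleaves the peptidoglycan of bacterial cell walls. Lyz2 encodes lysozyme M, the form of macrophages and neutrophils, and Lyz1 encodes lysozyme P, the form known best from Paneth cells of the small intestine. Lyz2 is also the host of the Cre driver of this study: in LysM-Cre mice the recombinase is inserted at the translation start of Lyz2, so Cre is made where the Lyz2 promoter is active, and an allele that carries it is regarded as null for lysozyme M. The driver therefore deletes floxed genes in the myeloid lineage (macrophages, monocytes and granulocytes) and alters its own host gene.

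The study deleted PARP1 or PARP2, enzymes that build poly(ADP-ribose) chains at sites of DNA damage, in myeloid cells. There were 4 groups of 2 libraries, described as biological duplicates, from C57BL/6 mice aged 2 months. PARP1 WT mice were PARP1 flox/flox without Cre and PARP1CKO mice were PARP1 flox/flox with lysozyme-Cre, while PARP2 WT and PARP2CKO were the same pair for PARP2 flox/flox. All 4 groups thus carried a floxed gene, and only the CKO groups carried Cre. The labels do not give the number of Cre copies, and no Cre animal without a floxed Parp gene was among the groups, so the insertion in Lyz2 and the loss of PARP1 or PARP2 cannot be told apart within a line. Bone marrow cells were held for 3 days in 40 ng/mL M-CSF, the growth factor that turns marrow progenitors into macrophages. The PARP1 and PARP2 lines were separate floxed lines, and whether they were cultured and prepared together was not stated, so line and handling cannot be told apart. With 2 libraries in a group, p-values measure the spread between these samples.

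Total counts per library ran from 37852450 to 61845125. Each floxed gene was lower in the CKO group of its own line. Parp1 was at 202 and 211 CPM (counts per 1000000 counts of the library) in PARP1 WT against 63.2 and 59.1 CPM in PARP1CKO, which is 29.6% of WT (95% confidence interval 22.4 to 39.2, edgeR adjusted p = 0.0134). Parp2 was at 48.2 and 48.3 CPM in PARP2 WT against 25.7 and 25.6 CPM in PARP2CKO, which is 53.3% of WT (49.6 to 57.2, edgeR adjusted p = 0.000139). Macrophage markers were present in every library, with Csf1r, the M-CSF receptor, at 1134 to 1273 CPM and Adgre1, which encodes F4/80, at 495 to 630 CPM. Neutrophil markers were present too, and their 9 genes in the table summed to 2688 to 3466 CPM per library. In a bulk sample, fewer cells of a type and less RNA per cell cannot be told apart, and this holds for each lysozyme value given here.

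The 2 genes lie next to each other on the minus strand of chromosome 10 (GRCm38/mm10, GENCODE M21). Lyz2 (ENSMUSG00000069516) spans chr10:117277331-117282321 and Lyz1 (ENSMUSG00000069515) spans chr10:117287797-117292868, with 5475 bases between them. Each has 4 exons and 444 coding bases. Their sequences are shown because the near-identity of the copies decides how well reads can be told apart, and because exon 1 of Lyz2 is where Cre sits. The coding part of exon 1, which begins with the start codon, is 136 bases long in each gene, at chr10:117282107-117282242 for Lyz2 and chr10:117292703-117292838 for Lyz1. It is written 5′ to 3′ on the minus strand of the chromosome, with capitals at the 14 positions where the copies differ.
Lyz2: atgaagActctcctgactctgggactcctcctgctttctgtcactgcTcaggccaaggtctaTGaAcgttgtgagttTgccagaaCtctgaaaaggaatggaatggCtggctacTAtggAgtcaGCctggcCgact
Lyz1: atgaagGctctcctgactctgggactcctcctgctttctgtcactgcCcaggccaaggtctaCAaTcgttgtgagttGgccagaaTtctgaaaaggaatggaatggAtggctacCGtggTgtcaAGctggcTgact

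Over the whole coding sequence, 422 of 444 bases were identical between Lyz1 and Lyz2. The aligned part after the coding sequence was as close, with 759 of 788 bases (96.3%) identical. Reads of this study were 75 bases long, and 74 of the 1189 windows of that length in the Lyz1 transcript (6.22%) also occur letter for letter in Lyz2. These windows fall into 2 identical runs of 118 and 104 bases. When up to 2 mismatches were allowed, 531 windows matched the other transcript, which is 44.7% of Lyz1 and 42.8% of Lyz2. How reads that match both genes were counted was not stated, so the split of counts between Lyz1 and Lyz2 is uncertain, and the values of Lyz1, the scarcer of the pair, are the more exposed to it. Reads of the Cre insert itself were not analysed here.

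The promoters are also copies of each other. In the 250 bases before the RefSeq start (GRCm38.p6), 200 of 248 aligned bases (80.6%) were identical, and 92 of the last 100 were. By GENCODE, Lyz2 starts further upstream, so the last 49 of its 250 bases lie in its annotated 5′ UTR, and these were identical in both genes. The stretch from 250 to 50 bases before the start is shown as a description, and its part in the levels of the genes was not tested. It lies at chr10:117282322-117282522 for Lyz2 and chr10:117292918-117293118 for Lyz1, and capitals mark bases in identical runs of 12 or more, the last capital being the first base of a run of 50 that goes on to the start.
Lyz2: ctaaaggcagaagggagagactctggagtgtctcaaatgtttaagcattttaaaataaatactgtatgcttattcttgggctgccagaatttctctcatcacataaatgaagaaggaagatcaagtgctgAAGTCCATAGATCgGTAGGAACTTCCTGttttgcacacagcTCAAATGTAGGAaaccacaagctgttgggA
Lyz1: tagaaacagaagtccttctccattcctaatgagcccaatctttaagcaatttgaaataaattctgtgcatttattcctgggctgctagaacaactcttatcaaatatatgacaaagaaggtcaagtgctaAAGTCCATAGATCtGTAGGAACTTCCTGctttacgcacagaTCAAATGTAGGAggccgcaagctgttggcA

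Core letters of the 2 best known myeloid factors were looked for on both strands of these 250 bases. GAGGAA, core letters bound by PU.1, was in neither promoter, and 23.3% of 32851 RefSeq promoters of the same length hold it. TTGCNNAA, core letters bound by C/EBP proteins, was not in the Lyz2 window. It occurred once in the Lyz1 window, 209 bases before the start on the other strand, and 9.56% of promoters hold it. A match to these letters, or the lack of one, is a description of the sequence and not a measurement of binding.

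Lyz2 was one of the most abundant mRNAs of these cultures. It stood between rank 6 and rank 12 of all genes by count in the 8 libraries and took 0.351% to 1.07% of all counts. The PARP1 WT libraries held 5712 and 6387 CPM of Lyz2 and the PARP1CKO libraries 3495 and 4334 CPM. In the other line the values were 9725 and 10804 CPM without Cre and 6742 and 5747 CPM with Cre. In the same order the group means were 6049.6 ± 477, 3914 ± 594, 10264 ± 763 and 6244 ± 703 CPM (SD, n = 2 each). PARP1CKO was the lowest group and PARP2 WT the highest, and neither overlapped another group. PARP2CKO and PARP1 WT lay between them and overlapped each other.

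Lyz1 was far lower and kept nearly the same order of groups. The PARP1 WT libraries held 259 and 253 CPM of Lyz1 and the PARP1CKO libraries 149.8 and 184 CPM. For PARP2 the WT libraries held 410.2 and 462 CPM and the CKO libraries 336 and 304.5 CPM. Means of the groups, in that order, were 256 ± 4.41, 167 ± 24.0, 436 ± 36.8 and 320.3 ± 22.3 CPM (SD, n = 2 each). No pair of groups overlapped for Lyz1, and PARP2CKO stood above PARP1 WT. By rank of count Lyz1 ranged from 301 to 1331. Counts of 7557 to 24047 lay behind each Lyz1 value and 176273 to 562366 behind each Lyz2 value, so counting error was small beside the differences between libraries.

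**Figure D1:**
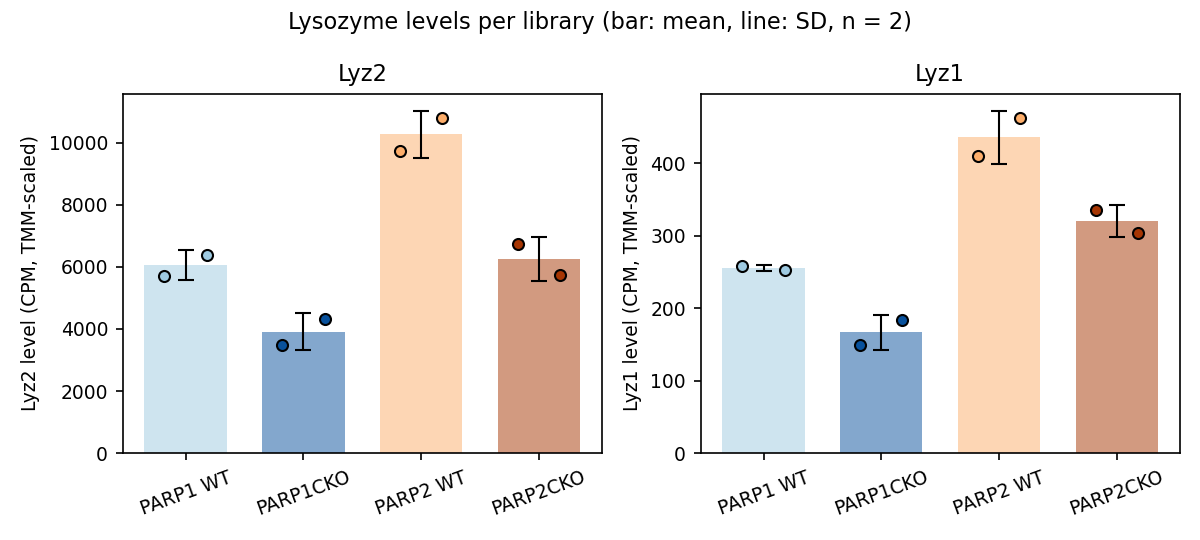
Level of Lyz2 (left) and Lyz1 (right) in TMM-scaled CPM on linear axes that start at 0, for the 4 groups. Points are libraries, bars the mean and lines the SD (n = 2), and in each line the CKO points lie below the WT points for both genes, with PARP2 WT the highest group.

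The first question was how the dose of the Cre host gene differed between CKO and WT. In the PARP1 line Lyz2 in PARP1CKO was at 64.7% of PARP1 WT (95% confidence interval 53.9 to 77.6), a log2 fold change of -0.63 with a standard error of 0.116. Both PARP1CKO libraries lay below both PARP1 WT libraries, a separation that 20.2% of all tested genes showed in the same direction. The edgeR quasi-likelihood test ranked Lyz2 at 43 of all genes and gave an adjusted p of 0.135, which did not pass the threshold of 0.05 that 0.106% of genes passed in this comparison. Over the other settings and the libraries left out the adjusted p ranged from 7.17e-05 to 0.281. The edgeR likelihood-ratio test, DESeq2 and the fit with no filter on low counts put Lyz2 past the threshold, with adjusted p-values of 7.17e-05, 0.0119 and 0.000688, where 1.11%, 0.754% and 0.576% of genes passed.

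In the PARP2 line Lyz2 in PARP2CKO was at 60.8% of PARP2 WT (50.7 to 73.0), a log2 fold change of -0.72 with a standard error of 0.116. Both PARP2CKO libraries lay below both PARP2 WT libraries, as for 18.8% of all tested genes. The quasi-likelihood test of edgeR gave rank 12 and an adjusted p of 0.187, where 0.053% of genes were called. That adjusted p ranged from 2.64e-06 to 0.510 over the alternatives. The likelihood-ratio test, DESeq2 and the fit without a filter again gave a call, with adjusted p-values of 2.64e-06, 0.00454 and 0.000227, where 0.296%, 0.205% and 0.148% of genes passed. A library of PARP1CKO enters this fit through the shared spread, the scaling and the filter. Leaving out either of them kept the log2 fold change at -0.72.

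Averaged over the 2 lines, both lysozyme genes fell in CKO. Lyz2 was at 62.7% of WT (55.2 to 71.4), a mean log2 fold change of -0.67 with a standard error of 0.0819 and an edgeR adjusted p of 0.0350. Lyz1 was at 69.2% of WT (62.2 to 76.9), a mean log2 fold change of -0.53 with a standard error of 0.0673 and an edgeR adjusted p of 0.0350. They ranked 7 and 10 among the 14 genes called for this mean effect, which are 0.106% of those tested, and all 4 CKO libraries lay below the WT libraries of their own line. Such a separation in both lines was seen for 540 genes, 4.09% of those tested. The exact permutation test within lines gave p = 0.0556 for each gene, the smallest that its 36 arrangements allow. Both calls were lost when 1 of 5 libraries was left out (either PARP1 WT library, PARP2 WT replicate 2 or either PARP2CKO library), with adjusted p up to 0.111 for Lyz2 and 0.149 for Lyz1, and both were kept without either PARP1CKO library or PARP2 WT replicate 1. Log2 fold changes without 1 library stayed between -0.75 and -0.60 for Lyz2 and between -0.61 and -0.46 for Lyz1. With the replicate number as a block they were -0.67 and -0.53, and neither gene was called (edgeR adjusted p = 0.0711 and 0.0881).

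The change of Lyz2 in CKO relative to the WT group of the same line did not differ detectably between the lines. The PARP2CKO effect minus the PARP1CKO effect was -0.089 on the log2 scale for Lyz2 (95% confidence interval -0.46 to 0.28, edgeR adjusted p = 0.915), in a comparison that called 0.0152% of genes. Without PARP1CKO replicate 2 or PARP2CKO replicate 2 the sign of this difference turned, to 0.076 and 0.022.

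Lyz1 does not carry the insertion and was lower in CKO as well. Of its windows of 75 bases, 44.7% match Lyz2 with up to 2 mismatches. How far reads of Lyz2 entered the Lyz1 counts was not tested. In PARP1CKO Lyz1 was at 65.2% of PARP1 WT (56.0 to 75.7), a log2 fold change of -0.62 with a standard error of 0.0959 and an edgeR adjusted p of 0.0738. In PARP2CKO it was at 73.4% of PARP2 WT (63.3 to 85.2), a log2 fold change of -0.45 with a standard error of 0.0945 and an edgeR adjusted p of 0.526. Neither value passed the threshold in its own line by the quasi-likelihood test. Both did by the likelihood-ratio test (adjusted p = 1.11e-06 and 0.00642), DESeq2 (3.16e-10 and 0.000180) and the fit without a filter (0.000219 and 0.0126). Those fits called 1.11%, 0.754% and 0.576% of all genes in the PARP1 line and 0.296%, 0.205% and 0.148% in the PARP2 line. The Lyz1 groups did not overlap in either line, and 20.2% and 18.8% of all tested genes were lower in this way. Without PARP1CKO replicate 1 or 2 the log2 fold change of Lyz1 in the PARP1 line was -0.48 or -0.77. The effect of PARP2CKO minus that of PARP1CKO was 0.17 for Lyz1 on the log2 scale (-0.13 to 0.48, edgeR adjusted p = 0.783).

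**Figure D2:**
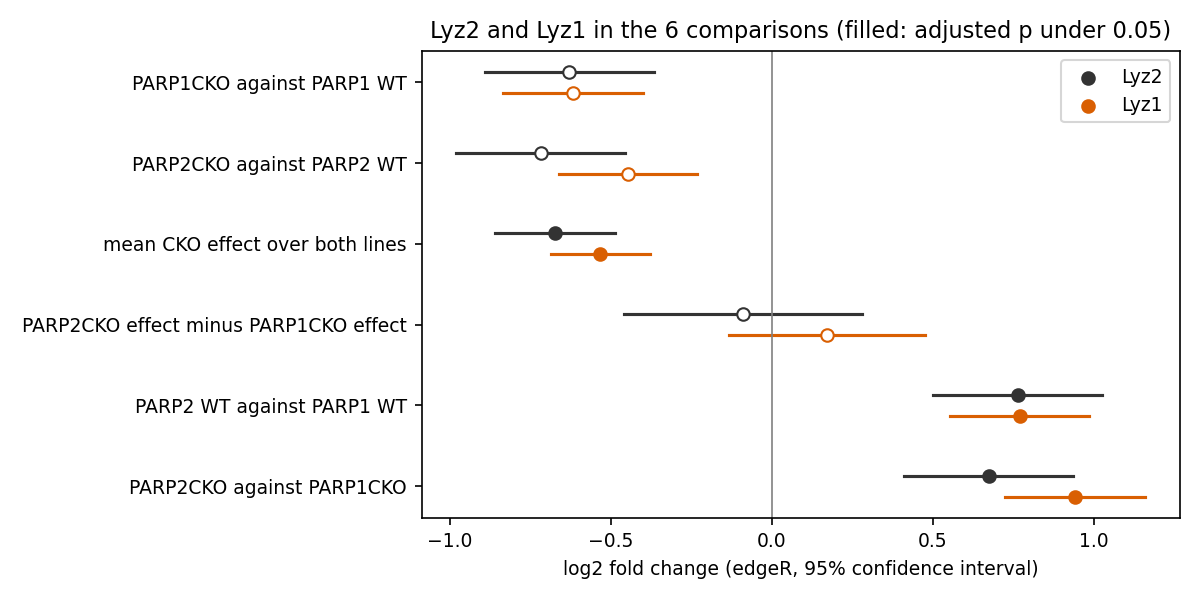
Log2 fold change of Lyz2 and Lyz1 (horizontal axis) in the 6 comparisons with 95% confidence intervals from edgeR, filled where the adjusted p was under 0.05. The 3 filled pairs are the mean CKO effect, at -0.67 and -0.53, and the line comparisons, at 0.76 and 0.77 for WT and 0.67 and 0.94 for CKO, and the other comparisons are open.

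The second question was how the lines differed where no Cre was present. Both lysozyme genes rose in PARP2 WT against PARP1 WT. Lyz2 was at 169.7% of PARP1 WT (141 to 204), a log2 fold change of 0.76 with a standard error of 0.116 and an edgeR adjusted p of 0.0117, and Lyz1 was at 170.4% (147 to 198), a log2 fold change of 0.77 with a standard error of 0.0952 and an edgeR adjusted p of 0.00529. In this comparison 3.16% of all genes were called, 1.92% as higher, and 26.7% were higher without overlap. The call of Lyz2 was lost without PARP1 WT replicate 1 (adjusted p = 0.114) and without PARP2 WT replicate 2 (0.0699). Lyz1 kept its call in all 17 alternatives, with an adjusted p up to 0.0491.

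The line difference was present in the Cre carriers too. Lyz2 in PARP2CKO was at 159.5% of PARP1CKO (133 to 191), a log2 fold change of 0.67 with an edgeR adjusted p of 0.0103, and Lyz1 was at 192% (165 to 223), a log2 fold change of 0.94 with an edgeR adjusted p of 0.00102. Here 10.3% of genes were called and 4.99% were called higher. Without PARP2CKO replicate 1 the Lyz2 difference was 0.55 and not called (adjusted p = 0.0911). PARP2CKO and PARP1 WT, which differ in Cre and in line, had overlapping Lyz2 levels, with 5747 and 6742 CPM against 5712 and 6387 CPM.

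The third question was the balance between the copies. Lyz1 made up 4.34% and 3.81% of the counts of both genes in PARP1 WT and 4.11% and 4.07% with Cre in that line. For the PARP2 line its share was 4.05% and 4.10% without Cre, and 4.75% and 5.03% in PARP2CKO. The 95% Wilson intervals, which cover counting error only, were 3.74 to 3.87 for the lowest library and 4.95 to 5.11 for the highest. The 2 PARP2CKO libraries had the highest shares and overlapped no other group, while PARP1 WT spanned the shares of both PARP1CKO and PARP2 WT. The 2 PARP1 WT libraries differed by more than their counting intervals, and the source of that difference was not tested.

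Put as a ratio, there were 18.9 to 25.3 Lyz2 counts per Lyz1 count, and 18.1 to 24.2 after division by transcript length (1316 bases for Lyz2 and 1263 for Lyz1). On that scale PARP1 WT held 4597 ± 363 CPM per kb of Lyz2 against 202.7 ± 3.49 of Lyz1 (SD, n = 2). Dividing by the windows of 75 bases that differ from the other gene at more than 2 bases, in place of the length, moved the ratio to 17.5 to 23.4. The log2 ratio of Lyz1 to Lyz2 differed by 0.0090 between PARP1CKO and PARP1 WT (exact permutation p = 1, two-sided) and by 0.27 between PARP2CKO and PARP2 WT, a 1.21-fold higher ratio (exact permutation p = 0.333, two-sided, the smallest that 2 against 2 allows). Over both lines the mean difference was 0.14, a 1.10-fold ratio (exact permutation p = 0.167, two-sided, with 0.0556 the smallest possible). The WT groups of the lines had nearly the same ratio, with a log2 difference of 0.0036, whereas their levels of both genes differed. The pooled SD of the log2 ratio between libraries of a group was 0.0766, which is less than the 0.27 of the PARP2 line. With 2 libraries against 2 the exact test cannot reach 0.05, so it could not decide whether Lyz1 and Lyz2 differed by unlike factors in the PARP2 line, where the difference was 0.23 to 0.32 when each library was left out in turn.

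**Figure D3:**
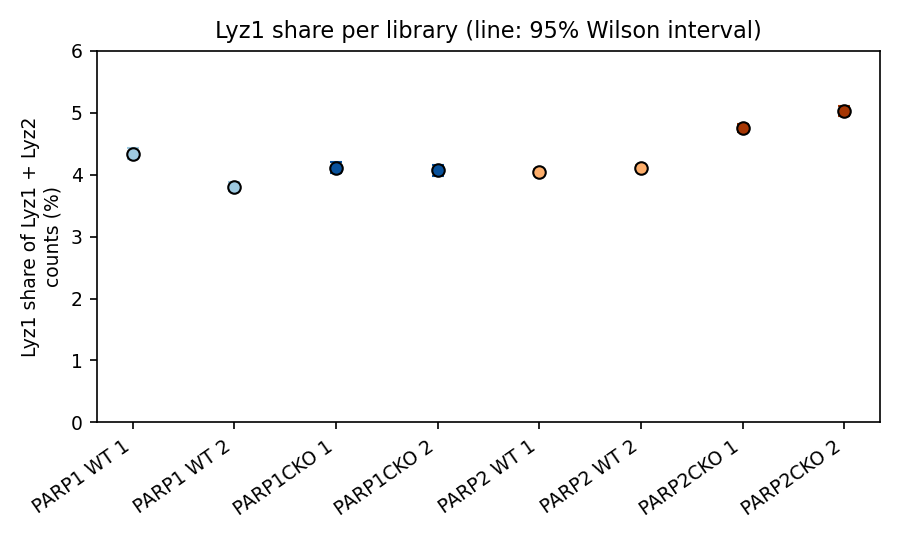
Share of Lyz1 in the summed counts of Lyz1 and Lyz2 (vertical axis, %, from 0) in each of the 8 libraries, with 95% Wilson intervals. The 6 libraries of the other groups lie between 3.81% and 4.34% and the 2 PARP2CKO libraries lie above them at 4.75% and 5.03%.

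Lyz1 and Lyz2 were also summed as 1 gene, so that a read given to the wrong copy did not matter. The sum follows Lyz2, which made up most of it, and does not recover reads that may have been dropped for matching both genes. The sum was lower by a log2 fold change of -0.63 in PARP1CKO (edgeR adjusted p = 0.136) and -0.70 in PARP2CKO (adjusted p = 0.198), and its mean over the lines was -0.67 (edgeR adjusted p = 0.0366). Against PARP1 WT the sum in PARP2 WT was higher by 0.76 (edgeR adjusted p = 0.0112).

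The genes near the locus were tested beside the lysozymes. Of 23 genes in the table that start within 1 Mb of Lyz2, 13 were tested and 0 were called in either CKO comparison by edgeR, the likelihood-ratio test or DESeq2, with 1 and 0 at an unadjusted p under 0.05, which 11.3% and 4.83% of all genes had. The 1 was Cct2, a chaperonin subunit, at 299 and 303 CPM in PARP1 WT against 277 and 274 CPM in PARP1CKO (log2 fold change -0.13, edgeR adjusted p = 0.287). Their log2 fold changes ran from -0.13 to 0.45 in the PARP1 line and from -0.26 to 0.15 in the PARP2 line. The nearest tested gene on one side was Yeats4, a chromatin reader subunit, which was at 38.0 to 42.4 CPM and differed by 0.047 and 0.049 on the log2 scale (edgeR adjusted p = 0.783 and 0.972). On the other side it was Cpsf6, a subunit of the mRNA cleavage complex, with 119 to 129.6 CPM and differences of 0.033 and 0.025 (edgeR adjusted p = 0.783 and 0.977). In PARP2 WT against PARP1 WT only Cpm, which encodes carboxypeptidase M, was called among the 13, and it fell by 1.61 on the log2 scale (edgeR adjusted p = 0.0252) at levels of 0.302 to 1.51 CPM, in a comparison that called 3.16% of all genes.

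**Figure D4:**
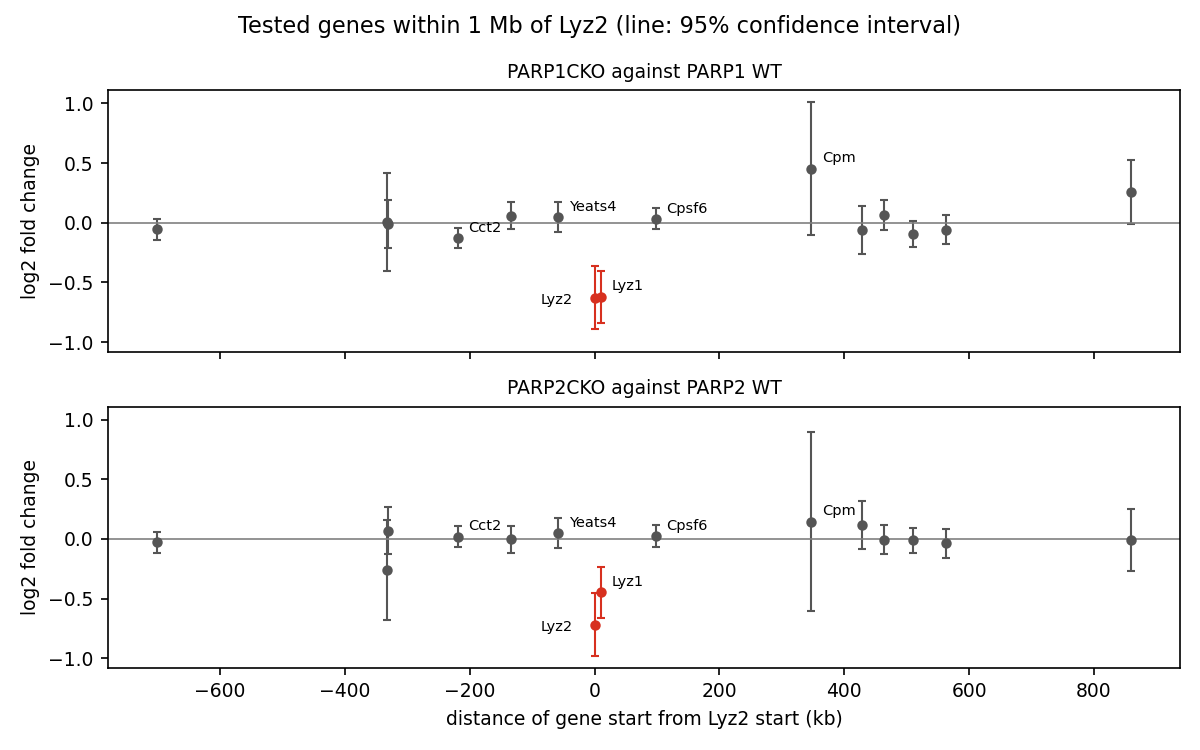
Log2 fold change with 95% confidence interval (vertical axis) against the distance of each gene's start from the Lyz2 start in kb, for the PARP1 line (top) and the PARP2 line (bottom). Lyz2 and Lyz1, in red, are the lowest points of both panels, and the 13 other tested genes lie between -0.13 and 0.45 in the top panel and between -0.26 and 0.15 in the lower one.

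Within the lysozyme family, Lyz1 and Lyz2 were the most abundant members. Of 10 family and lysozyme-like genes in the table, 3 were tested, and the third, Lyzl4, was at 1.62 to 2.30 CPM and differed by -0.15 and -0.16 in the 2 CKO comparisons (edgeR adjusted p = 0.785 and 0.968). The other 7 (Lyzl1, Lyzl6, Spaca3, Spaca5, Lalba, Lyg1 and Lyg2) had 0 counts in all 8 libraries, which allows up to 0.0503 to 0.0775 CPM by a floor of 3 counts.

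The partners of lysozyme in antibacterial defence were described from named lists. Of 11 tested genes that sense or transport peptidoglycan fragments, 0 were called in either CKO comparison by edgeR, DESeq2 or the likelihood-ratio test, with 3 and 2 at an unadjusted p under 0.05 in the PARP1 and PARP2 lines, where 11.3% and 4.83% of all genes had one. All 3 in the PARP1 line were higher, and the 2 in the PARP2 line were 1 higher and 1 lower. Their median log2 fold changes were 0.10 and -0.016, against 0.0059 and -0.0014 over all genes. In the mean effect 0 were called by edgeR, with 2 higher at an unadjusted p under 0.05, which 9.17% of all genes had. DESeq2 and the likelihood-ratio test, which called 0.455% and 0.659% of all genes there, both called Slc15a3 as higher (log2 fold change 0.16, edgeR adjusted p = 0.240). The most abundant were Slc15a3, a lysosomal transporter of muropeptides at 186 to 229 CPM, Nlrp3, an inflammasome sensor at 66.1 to 84.4 CPM, and Tlr2, a receptor of bacterial lipoproteins at 43.6 to 57.2 CPM. None of these 11 was called between the WT groups by the 3 tests either, with 2 at an unadjusted p under 0.05, which 18.9% of all genes had.

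Other antibacterial granule and secreted proteins gave the same count in CKO. Of 11 tested, 0 were called in either line by any of these 3 tests, with 1 and 0 at an unadjusted p under 0.05, where 11.3% and 4.83% of all genes had one. Their medians were -0.062 and -0.13 against 0.0059 and -0.0014 over all genes, and 7 and 10 of the 11 were lower. In the mean effect 0 were called by the 3 tests and 0 had an unadjusted p under 0.05, which 9.17% of all genes had. The list was led by S100a9, a subunit of the metal-binding protein calprotectin, at 858 to 1129 CPM. Between the WT groups 2 of the 11 rose in the PARP2 line, as Lyz1 and Lyz2 did, namely Elane, neutrophil elastase (0.42, edgeR adjusted p = 0.0269), and Prtn3, proteinase 3 (0.54, edgeR adjusted p = 0.0197), in a comparison where 1.92% of all genes were called higher. DESeq2 called 4 of the 11 as higher and the likelihood-ratio test 6, where they called 4.43% and 6.9% of all genes, and 6 had an unadjusted p under 0.05, as 18.9% of all genes did. The differences of Elane and Prtn3 were smaller on the log2 scale than the 0.76 and 0.77 of the lysozymes, a difference between genes that was not tested.

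Of 12 myeloid transcription factors, all tested, 0 were called in either CKO comparison or in the mean effect by any of the 3 tests. At an unadjusted p under 0.05 there were 1 and 2 in the PARP1 and PARP2 lines and 1 in the mean effect, all higher, where 11.3%, 4.83% and 9.17% of all genes had one. Spi1, which encodes PU.1, was at 182 to 217 CPM. Between the WT groups 3 of the 12 were called higher in the PARP2 line by edgeR, where 1.92% of all genes were called higher. At an unadjusted p under 0.05 there were 8, all higher, and 18.9% of all genes had one. DESeq2 called 3 and the likelihood-ratio test 4, where they called 4.43% and 6.9% of all genes. Among those called by edgeR, Egr2, a zinc finger factor, rose by 1.25 on the log2 scale (edgeR adjusted p = 0.00159). Cebpa, a factor of granulocyte and monocyte commitment, rose by 0.51 (edgeR adjusted p = 0.0383). Egr2 was at 4.60 and 4.68 CPM in PARP1 WT against 10.9 and 11.1 CPM in PARP2 WT. Its groups did not overlap, and 26.7% of all tested genes were higher without overlap in this comparison.

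Cell markers were set beside the lysozyme differences. The 10 macrophage and monocyte markers summed to 4137 to 4359 CPM in PARP1 WT against 4281 to 4448 CPM with Cre, and to 4440.1 to 4655 CPM in PARP2 WT against 4709.9 to 4859.8 CPM with Cre. The sums with Cre overlapped those without in the PARP1 line and lay above them in the PARP2 line, while Lyz1 and Lyz2 were lower with Cre in both. The 9 neutrophil markers summed to 3027 to 3268, 2688 to 3399, 3229 to 3466 and 2805 to 3198 CPM in the same order. By edgeR 0 of these 19 were called in either CKO comparison, with 3 and 5 at an unadjusted p under 0.05, which 11.3% and 4.83% of all genes had. In the PARP1 line these were Adgre1 and Camp as higher and Ccr2 as lower, and in the PARP2 line Adgre1, Fcgr1 and Mertk as higher and the neutrophil genes Cxcr2 and Retnlg as lower. DESeq2 and the likelihood-ratio test each called only Retnlg of the 19, as lower in PARP2CKO, where they called 0.205% and 0.296% of all genes. For the mean CKO effect, on which Lyz1 and Lyz2 were called, edgeR called 0 of the 19, with 3 higher and 2 lower at an unadjusted p under 0.05, which 9.17% of all genes had. DESeq2 and the likelihood-ratio test, which called 0.455% and 0.659% of all genes there, both called Adgre1 as higher (log2 fold change 0.18, edgeR adjusted p = 0.240) and Retnlg as lower (-0.38, edgeR adjusted p = 0.248). The 3 immature myeloid markers in the table, Itgam, Ly6c1 and Ly6c2, were called in neither CKO comparison nor in the mean effect by any of these tests. Ly6c2 was at 72.2 and 71.9 CPM in PARP2 WT against 61.0 and 60.7 CPM in PARP2CKO, and was the 1 of the 3 at an unadjusted p under 0.05 in the PARP2 line and in the mean effect. Like Lyz1 and Lyz2 it was lower with Cre in the PARP2 line without overlap, as 18.8% of all tested genes were. In the PARP1 line its groups overlapped, at 59.9 and 64.9 CPM in PARP1 WT against 53.9 and 61.2 CPM in PARP1CKO. In PARP2 WT Ly6c2 was, with Ly6c1, higher than in PARP1 WT at an unadjusted p under 0.05, which 18.9% of all genes had. Basophil and mast cell markers summed to 14.6 to 20.7 CPM in PARP1CKO against 18.2 to 20.2 CPM in PARP1 WT. In the PARP2 line their sums were 8.05 to 10.4 CPM with Cre and 11.0 to 12.5 CPM without. By edgeR 0 of these 5 were called in CKO. At an unadjusted p under 0.05, 1 was lower in the PARP2 line and 2 in the mean effect, where 4.83% and 9.17% of all genes had one. The neutrophil sums overlapped in the PARP1 line and were lower in both PARP2CKO libraries, and the part of these markers in the CKO lysozyme values was not tested. Between the WT groups the 5 B cell markers summed to 27.5 to 32.2 CPM in PARP1 WT and 8.96 to 10.6 in PARP2 WT, and all 5 fell by edgeR, which called 3.16% of all genes in this comparison. The 5 granulocyte progenitor markers, which include Elane and Prtn3, summed to 275 to 311 CPM in PARP1 WT and 359 to 403 CPM in PARP2 WT. All 5 were higher at an unadjusted p under 0.05, against 18.9% of all genes, and 2 were called by edgeR. The 5 basophil and mast cell markers summed to 18.2 to 20.2 CPM in PARP1 WT and 11.0 to 12.5 CPM in PARP2 WT. Of these 4 were lower at an unadjusted p under 0.05 and 0 were called by edgeR. DESeq2 called 2 and the likelihood-ratio test 3, where they called 4.43% and 6.9% of all genes. Of the macrophage and monocyte markers 1 of 10 rose, Mertk, a receptor for dying cells, at up to 37.9 CPM in PARP1 WT against 55.3 and 68.4 CPM in PARP2 WT. Of the neutrophil markers 1 of 9 fell by edgeR, Retnlg, and DESeq2 and the likelihood-ratio test also called Cxcr2 as lower and Camp as higher. The part of these markers in the line difference of Lyz1 and Lyz2 was not tested. Markers of T and NK cells summed to at most 0.384 CPM and were not tested. Those of red cells summed to 3.47 to 4.16 CPM in PARP1 WT, 5.55 to 7.03 in PARP1CKO, 1.81 to 1.85 in PARP2 WT and 1.45 to 1.46 in PARP2CKO, with no overlap of groups. Between the WT groups all 5 red cell genes tested were lower, 4 at an unadjusted p under 0.05 and 1 called by edgeR.

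The genes most like each lysozyme across the 8 libraries were listed by Pearson r of log2 CPM, as a description over libraries that share groups and lines. The uncertain split of reads between Lyz1 and Lyz2 bears on their likeness to each other. For Lyz2 the closest of all genes was Lyz1 (r = 0.968), followed by Cd209e (0.962, at most 0.250 CPM), Mtus1 (0.956), Aifm1 (0.952) and Hdlbp (0.947). For Lyz1 they were Atg5 (0.980), Cd209e (0.972), Lyz2 (0.968), Klhl9 (0.967) and Impa1 (0.966). Mtus1, Aifm1 and Hdlbp spanned narrow ranges of 23.6 to 29.6, 35.8 to 41.0 and 402 to 436 CPM, whereas Lyz2 spanned 3495 to 10804 CPM.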

How the data were processed

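Total RNA (4 µg) was sequenced by the authors with a stranded total RNA kit as single 75-base reads, trimmed, aligned to mm10 with TopHat2 2.0.12, marked for duplicates with Picard 1.127 and counted with featureCounts. Annotation, strand setting and the treatment of multi-mapped reads are not given in the sources used here. The deposited values are raw counts per gene, and 0 columns of other samples were present. Counts of 8 libraries were fitted with edgeR 4.0.16 (R 4.3.3) by the quasi-likelihood test, with TMM scaling (factors 0.965 to 1.03), the default filter on low counts (13197 of 24062 genes kept), 1 mean per group and Benjamini-Hochberg adjustment over all tested genes, at a threshold of 0.05. Standard errors were taken from the F statistic. CPM are TMM-scaled. The script was tested on simulated data. Alternatives were DESeq2 1.42.0, the likelihood-ratio test, other scalings and filters, each comparison's libraries alone, a replicate block, both lysozymes summed, and each library left out. Replicate libraries were no duplicates (chi-square per gene 8.69 to 13.1). Named genes were the lysozymes, the floxed genes, and per list the called and the 3 most abundant members. Members and lists were chosen with earlier results of these data known. The rows Ly6g and Trac were not analysed here. A result of the transcription factor list is not reported here.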

Additional observations from a re-analysis of the deposited data

Results flagged for a closer look

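The effect of PARP2CKO minus that of PARP1CKO differed from 0 for the floxed gene Parp2, by -0.82 on the log2 scale (edgeR adjusted p = 0.00634). Parp2 is floxed in the PARP2 line alone, so a difference of this direction was set by the design. In the PARP1 line Parp2 was at 39.1 and 40.8 CPM in WT and 38.3 and 37.0 CPM in CKO. In the PARP2 line it was at 48.2 and 48.3 CPM in WT and 25.7 and 25.6 CPM in CKO.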

How the results depend on the processing

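Each lysozyme value rests on at least 7557 counts, and each group on 2 libraries. In the PARP1 line the log2 fold changes of Lyz2 and Lyz1 were -0.63 and -0.62 by DESeq2, the likelihood-ratio test and no filter on low counts, and each was then called. In the PARP2 line they were -0.71 and -0.44 by DESeq2, and -0.72 and -0.45 by the likelihood-ratio test and with no filter, all called. With the replicate block the mean effects were -0.67 for Lyz2 (adjusted p = 0.0711) and -0.53 for Lyz1 (adjusted p = 0.0881), no longer called, and 6 genes were called in place of 14. The numbers did not pair the libraries (correlations of deviations from -0.13 to 0.15), and crossing them in PARP1CKO, an alternative chosen after seeing the data, gave 18 calls for PARP1CKO against PARP1 WT, where the main design and the block as numbered gave 14 each. With both genes summed the difference between the lines' effects was -0.077, against 0.17 for Lyz1 alone.

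Counts of called genes were 14, 7, 14, 2 and 417 for the PARP1 line, the PARP2 line, their mean, their difference and the WT groups. By DESeq2 the first 4 were 86, 27, 60 and 45, by the likelihood-ratio test all 5 were 146, 39, 87, 72 and 910, and with no filter 101, 26, 71, 61 and 872. The cause was not tested.

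Leaving out each library in turn moved Lyz2 from -0.79 to -0.48 and Lyz1 from -0.77 to -0.48 in the PARP1 line, Lyz2 from -0.84 to -0.61 and Lyz1 from -0.53 to -0.36 in the PARP2 line, and their means from -0.75 to -0.60 and from -0.61 to -0.46. The difference of effects moved from -0.24 to 0.076 for Lyz2 and from 0.033 to 0.33 for Lyz1. The WT groups differed by 0.68 to 0.84 for Lyz2 and 0.68 to 0.85 for Lyz1, and the CKO groups by 0.53 to 0.84 and 0.80 to 1.10. Calls ran from 1 to 34, 4 to 19, 3 to 25, 1 to 16, 85 to 566 and 234 to 1458 in the order above with the CKO groups last. The log2 ratio of Lyz1 to Lyz2 ran from -0.089 to 0.11, 0.23 to 0.32, 0.093 to 0.19, 0.17 to 0.36, -0.095 to 0.10 and 0.23 to 0.31. A group left with 1 library is assumed to vary like the others.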
